A study of Mus musculus with 36 samples.

Results

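Igf1, which encodes insulin-like growth factor 1, and 6 genes of IGF binding proteins, Igfbp2 to Igfbp7, were described across 6 muscles of 3 mouse strains. They were measured by the probe sets annotated to these genes, 11 of the 12488 on the array. Of these, 10 carried a single listed gene, and 1 (100566_at) was annotated to both Igfbp5 and Tmem119, so that its signal cannot be assigned to either. The filter on low signal was passed by 10 of the 11, among 7453 probe sets tested in all; the third Igfbp4 probe set (101570_at) did not pass, with 18 of 34 arrays at the floor. So 6 of the 7 genes had a probe set of their own, of 8251 such genes on the array, and Igfbp5 was measured only through the shared one, called the Igfbp5 or Tmem119 probe set.

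IGF1 is a growth factor made by liver under growth hormone and also locally in muscle, where it acts on fibres and on satellite cells through the IGF1 receptor. The binding proteins carry IGF1 and IGF2, lengthen their stay in blood and limit or aid their access to the receptor. IGFBP3 is the main carrier in blood, IGFBP4 mostly inhibits IGF action and is cut by the protease PAPP-A, IGFBP5 is tied to muscle and bone differentiation, IGFBP6 prefers IGF2, and IGFBP7 binds IGF weakly. Tmem119 encodes a membrane protein known from bone-forming cells and microglia. Liver is a main source of circulating IGF1, and also expresses Igfbp2 and Igfbp4.

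RNA was measured on Affymetrix MG_U74Av2 arrays in C57BL10 mice, which carry normal dystrophin, and in mdx and mdx5cv mice, which each carry a mutation of Dmd, the dystrophin gene, in all cells. The muscles were the diaphragm and 5 limb muscles: EDL (extensor digitorum longus), gastroc (gastrocnemius), quadriceps, soleus and TA (tibialis anterior). Every sample was a pool of muscle RNA from 5 males of 8 weeks, with 2 samples planned for each of 18 groups, and the age and sex were shared by all groups. Whether the 2 pools of a group were made from different mice is left unsaid by the labels, so p-values measure only the spread between these samples, which may be technical.

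The gastroc columns of mdx sample 2 and mdx5cv sample 1, were identical in all 12488 probe sets to the quadriceps column of the same strain and number, and were left out. This left 34 arrays, 12 of C57BL10 and 11 of each mutant, and 1 array each for mdx and mdx5cv gastroc. Median Spearman correlation across genes with the other arrays was low for C57BL10 TA sample 2 (0.615) and for mdx5cv quadriceps sample 2 (0.764). Precision is limited by how few arrays each group had. The ratio of 3' to 5' actin probe sets, a measure of RNA quality, was 0.768 ± 0.114 (SD, n = 12) in C57BL10, 1.10 ± 0.343 (SD, n = 11) in mdx and 1.03 ± 0.126 (SD, n = 11) in mdx5cv. The highest values were those of mdx soleus sample 2, at 1.96 for actin and 3.44 for the same ratio of Gapdh. The Gapdh ratio of mdx EDL sample 1 was 2.74. The part of RNA quality in the strain differences was not tested. Scanning periods were unevenly shared: the first held 5 C57BL10 arrays alone and the second 5 mdx and 4 mdx5cv arrays, while the third held 4, 5 and 6 arrays of C57BL10, mdx and mdx5cv. Fibre markers were present in every set: the mean log2 signal of the 8 fast fibre markers was at least 13.23 in all samples, and none of the 6 slow fibre markers was at the floor of signal in any sample.

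Promoter windows of 250 bases before a start site were read from RefSeq for 6 of the 7 genes (build GRCm38.p6). The windows of Igf1, Igfbp3 and Igfbp4, and the second of 2 windows of Igfbp2 (chr1:72825137-72825386), lie inside the annotated gene and are not printed. The windows below are printed because they belong to the members at the ends of the C57BL10 muscle comparison below. Igfbp2 had the largest excess in the diaphragm. Igfbp6 was the only member called lower in a muscle, TA, a call that rested on 1 array. Capitals mark the motifs searched for on both strands, the TATA box TATAAA, the GC box GGGCGG and the CCAAT box, where a match is only a description.
Igfbp2, chr1:72824230-72824479, plus strand: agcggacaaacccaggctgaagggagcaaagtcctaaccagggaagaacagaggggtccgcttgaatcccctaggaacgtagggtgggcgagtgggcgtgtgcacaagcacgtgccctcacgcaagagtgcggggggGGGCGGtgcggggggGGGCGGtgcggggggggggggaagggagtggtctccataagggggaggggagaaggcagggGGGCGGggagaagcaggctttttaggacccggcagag
Igfbp6, chr15:102143936-102144185, plus strand: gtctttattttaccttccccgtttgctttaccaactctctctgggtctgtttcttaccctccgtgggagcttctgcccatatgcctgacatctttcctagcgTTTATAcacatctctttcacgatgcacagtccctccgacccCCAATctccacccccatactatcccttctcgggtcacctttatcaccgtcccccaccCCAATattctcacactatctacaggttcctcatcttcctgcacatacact
The printed Igfbp2 window held 3 GC boxes and no match of the other motifs, while the second Igfbp2 window matched none of the 3, and the Igfbp6 window held 1 TATA box, 2 CCAAT boxes and no GC box. Of 32851 RefSeq windows of the same length, the TATA box was in 12.4%, the GC box in 32.7% and the CCAAT box in 33.8%. Igfbp2 (chr1:72824480-72852474) is annotated just before Igfbp5 (chr1:72858065-72874865), while Igf1 lies at chr10:87858265-87937047 and Igfbp4 at chr11:99040005-99052655.

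The diaphragm carried far more signal of Igfbp2, of 1 of the 2 Igf1 probe sets and of 1 Igfbp4 probe set than any limb muscle of C57BL10. Igfbp2 (98627_at) had a signal of 7155 and 8195 in the C57BL10 diaphragm samples and of 294 to 1113 in the 10 C57BL10 limb samples. Igf1 by probe set 95546_g_at had 6298 and 8239 against 507 to 1239, and Igfbp4 by 101571_g_at had 10545 and 11310 against 767 to 1815. Both diaphragm samples lay above every limb sample for all 3.

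In limma, where 16.2% of all probe sets tested passed an adjusted p of 0.05 between C57BL10 diaphragm and the mean of the other 5 C57BL10 muscles, 4 of the 10 member probe sets did, all higher. Igfbp2 was higher by 4.18 ± 0.36 on the log2 scale (SE; 18.1-fold; limma adjusted p = 4.5e-09). Igf1 by 95546_g_at was higher by 3.33 ± 0.32 (10.05-fold; limma adjusted p = 2.9e-08), and Igfbp4 by 101571_g_at by 2.94 ± 0.38 (7.65-fold; limma adjusted p = 2.9e-06). The other Igf1 probe set, 95545_at, was higher by 0.96 ± 0.22 (1.94-fold; limma adjusted p = 0.0026), with 7198 and 6888 in the diaphragm against 2765 to 4800 in the limb muscles. Without C57BL10 diaphragm sample 1 its adjusted p was 0.074.

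The remaining members did not pass in the diaphragm. The second Igfbp4 probe set, 94222_at, differed by 0.83 (limma adjusted p = 0.097), with 3185 and 2359 in the diaphragm and 849 to 2332 in the limb muscles. Igfbp6 differed by 0.64 (adjusted p = 0.35), Igfbp3 by -0.37 with probe set 95082_at (0.57) and -0.15 with 95083_at (0.94), Igfbp7 by 0.15 (0.91) and the Igfbp5 or Tmem119 probe set by -0.12 (0.88). For these 5 probe sets the diaphragm samples overlapped the range of the limb samples.

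Liver markers were also far higher in the diaphragm than in the limb muscles. All of the 15 liver markers on the array, of 20 listed, were above the floor in the 6 diaphragm arrays, and their mean log2 signal was 14.36 to 14.39 in C57BL10, 14.25 to 14.74 in mdx and 12.92 to 13.16 in mdx5cv. In the 22 arrays of the 4 limb muscles other than TA it was 7.51 to 9.55, with up to 11 markers at the floor. Their summed signal was 485275 to 503212 in C57BL10 diaphragm and 5712 to 12234 in the C57BL10 limb muscles other than TA. Albumin (Alb), the most abundant plasma protein made by liver, had 97765 and 91415 in C57BL10 diaphragm and 66 to 367 in those limb muscles. In the C57BL10 TA the liver mean was 10.70 and 10.88, above the 7.54 to 7.92 of the other 4 C57BL10 limb muscles. The members differed there. Igfbp2 (474 and 1113) and Igf1 95545_at (4753 and 4800) lay above the other C57BL10 limb muscles in TA. Igf1 95546_g_at (546 and 1239) overlapped them, and Igfbp4 101571_g_at was lowest in TA, with a geometric mean of 1058. The part of liver RNA in the diaphragm values of Igf1, Igfbp2 and Igfbp4 was not tested. In such bulk RNA, fewer cells of a type and less RNA per cell cannot be told apart.

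**Figure D1:**
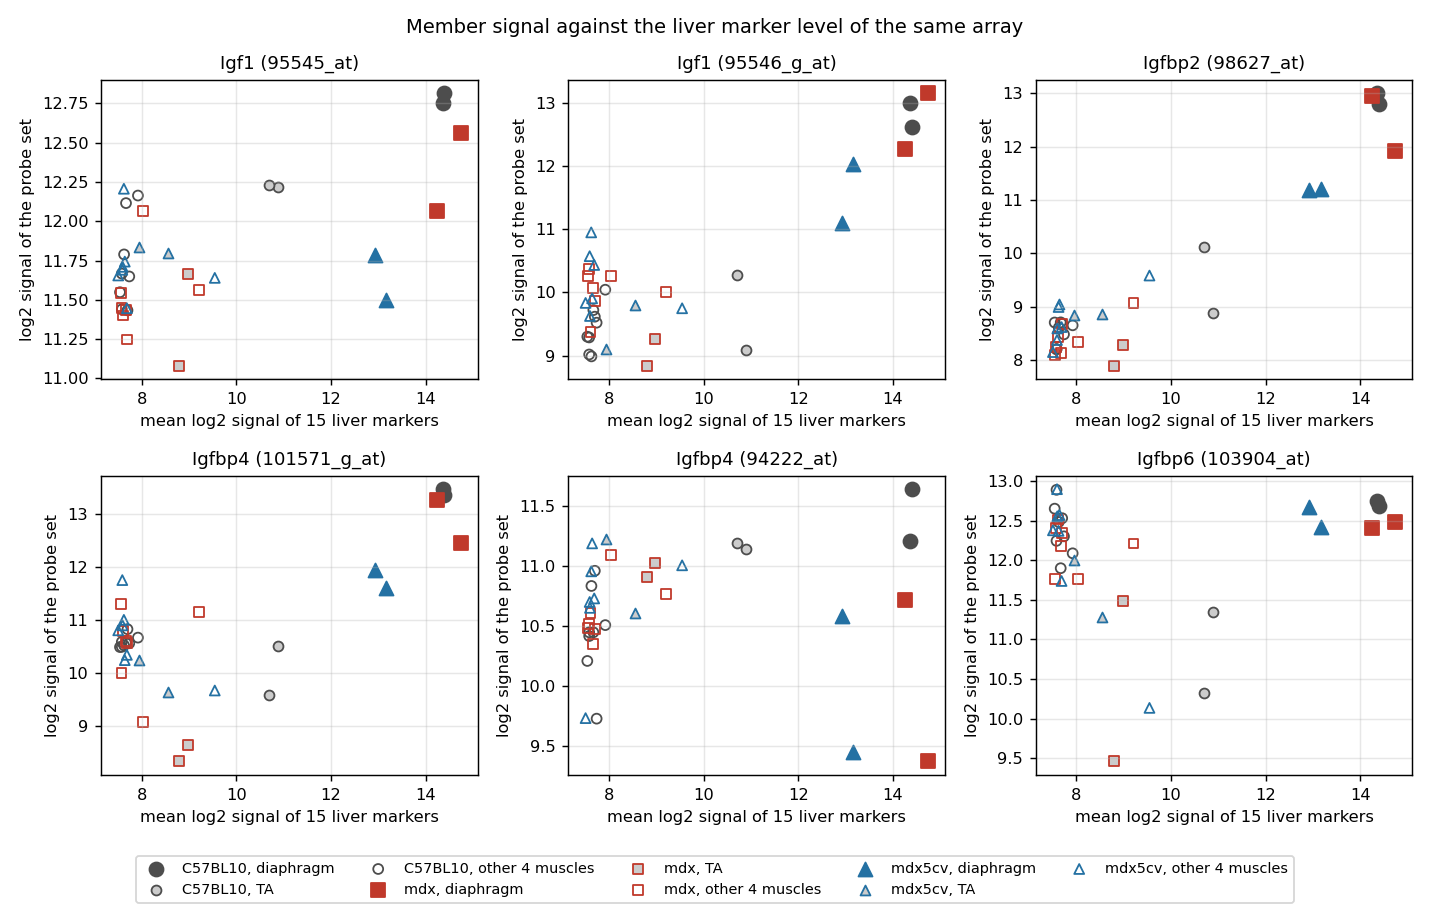
Log2 signal of 6 member probe sets (vertical axis) against the mean log2 signal of 15 liver markers in the same array (horizontal axis), 1 point per array; colour and shape give the strain, large filled points the diaphragm, grey points TA. The 6 diaphragm arrays lie at a liver level of 12.92 or more, and in Igfbp2 and Igf1 95546_g_at they are also the 6 highest; in Igfbp6 they are not set apart.

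In the mutants the same 3 probe sets were compared between diaphragm and limb muscles as a description, with no test, and the folds were lower in mdx5cv than in mdx. Igfbp2 had 7946 and 3869 in mdx diaphragm (17.3-fold over the mdx limb mean) and 2325 and 2353 in mdx5cv (5.38-fold). Igf1 95546_g_at had 4948 and 9134 in mdx (7.24-fold) and 2204 and 4220 in mdx5cv (2.89-fold). Igfbp4 101571_g_at had 9815 and 5606 in mdx (6.41-fold) and 3910 and 3125 in mdx5cv (2.43-fold), where the limb samples reached 3447 and so overlapped it. For Igf1 95545_at the fold was 1.76 in mdx and 0.949 in mdx5cv, where the diaphragm overlapped the limb range. The lower mdx5cv diaphragm values stood beside the lower mdx5cv liver level.

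Among the C57BL10 limb muscles only one member passed the test in any muscle, Igfbp6 in TA. Its signal was 2601 and 1284 in TA, and 3819 to 7580 in the other 4 limb muscles, so that both TA samples lay below them. Against the mean of the other 5 muscles Igfbp6 was lower in TA, with a log2 difference of -1.62 ± 0.42 (limma adjusted p = 0.028), where 6.59% of all probe sets passed. The call rested on C57BL10 TA sample 2, an array of low correlation, and was lost without it (-1.11, adjusted p = 0.78). The mutant TA samples had 704 and 2868 in mdx and 2483 and 4106 in mdx5cv.

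No member passed in EDL, gastroc, quadriceps or soleus of C57BL10. There 1.68%, 0.872%, 1.03% and 2.62% of all probe sets passed in limma. The reference of these contrasts contains the diaphragm: the log2 difference of Igfbp2 from it in quadriceps was -1.30 ± 0.36 (limma adjusted p = 0.11). The Igfbp5 or Tmem119 probe set was lowest in soleus, at 9321 and 6268, against 7618 to 22271 in the other C57BL10 limb muscles (limma difference -0.94, adjusted p = 0.17). In the order of C57BL10 levels, soleus and its neighbour TA overlapped, as did every other pair of neighbouring muscles for that probe set.

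**Figure D2:**
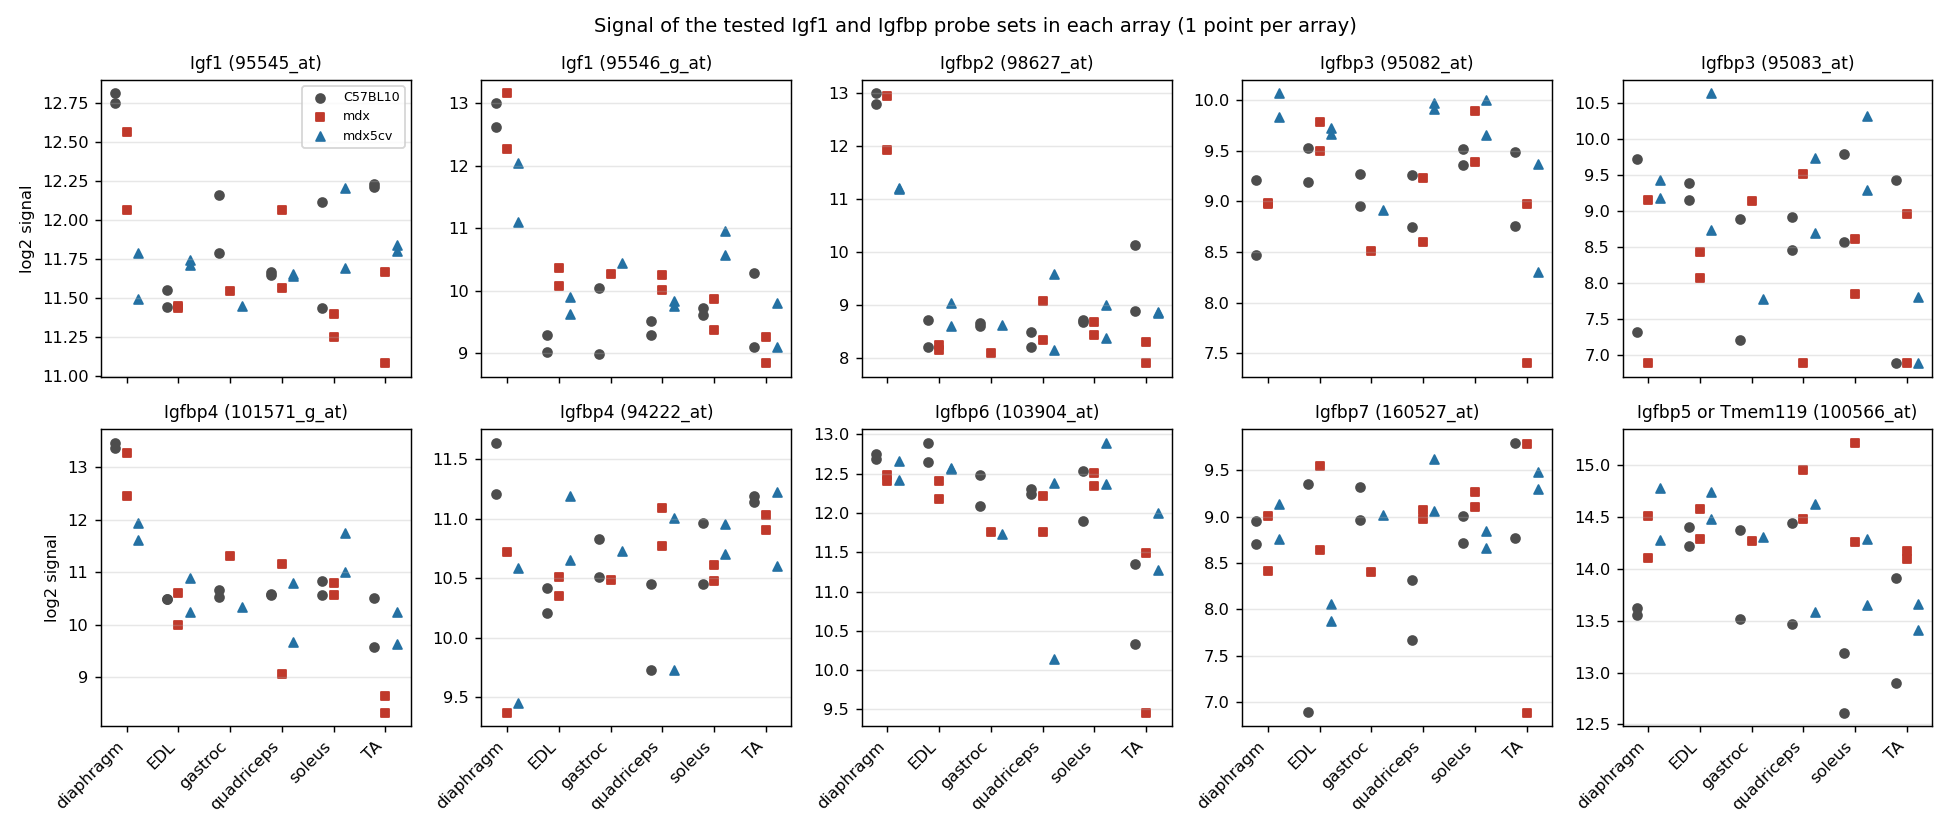
Log2 signal (values under the floor set to it) of the 10 tested member probe sets in each array, by muscle and strain, 1 point per array. The diaphragm points of Igfbp2, Igf1 95546_g_at and Igfbp4 101571_g_at stand above the limb muscles of C57BL10 and mdx, and TA holds most of the lowest Igfbp6 values.

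The order of the other C57BL10 muscles could seldom be told apart. For Igfbp2, TA (474 and 1113) came after the diaphragm and lay above soleus (409 and 417), and gastroc, EDL and quadriceps overlapped in turn. For Igf1 95545_at the TA (4753 and 4800) lay above gastroc (3538 and 4587), while gastroc, soleus and quadriceps overlapped. For Igf1 95546_g_at the 5 limb muscles ran from 823 in TA to 571 in EDL as geometric means, and every neighbouring pair overlapped. For Igfbp4 101571_g_at the limb means ran from 1656 in soleus to 1058 in TA, and for Igfbp7 those of all 6 muscles ran from 624 in TA to 255 in quadriceps with overlap throughout. Igfbp3 (95082_at) ran from 693 in soleus to 458 in diaphragm, again with overlap between all neighbours. For Igfbp6, EDL (6429 and 7580) and diaphragm (6589 and 6888) overlapped and lay above gastroc, and soleus (3819 and 5914) lay above TA. For Igfbp4 94222_at, TA (2253 and 2332) lay below the diaphragm and above soleus (1396 and 1990).

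In the averaged comparison of mdx with C57BL10, 2 of the 10 tested member probe sets passed, 1 higher and 1 lower, against 15.9% of all probe sets. The higher one was the Igfbp5 or Tmem119 probe set. Its signal over the 6 muscles was 6268 to 22271 in C57BL10 (median 12312, n = 12), 17496 to 38040 in mdx (median 20008, n = 11) and 10873 to 28003 in mdx5cv (median 19992, n = 11). The highest C57BL10 samples overlapped both mutants. It was higher in mdx by 0.75 ± 0.18 (SE; limma adjusted p = 0.0054), and this call held when each array was left out in turn. Within the third scanning period alone the difference was 1.26 (adjusted p = 0.075), and with the period as a block 0.91 (adjusted p = 0.016).

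In mdx5cv none of the 10 passed in limma, against 14.9% of all probe sets. The Igfbp5 or Tmem119 probe set differed by 0.49 ± 0.18 (limma adjusted p = 0.071, 95% interval 0.12 to 0.86). With the scanning period as a block it passed (0.71, adjusted p = 0.048), as it did without the 2 arrays of low correlation (0.49, adjusted p = 0.040) and with quantile normalization (0.60, adjusted p = 0.00507). It also passed without C57BL10 gastroc sample 2 (adjusted p = 0.044), C57BL10 quadriceps sample 1 (0.037), C57BL10 TA sample 1 (0.022) or mdx5cv quadriceps sample 2 (0.027). Without the diaphragm and the TA the probe set that passed was Igf1 95546_g_at (0.75, adjusted p = 0.025). Igf1 95545_at differed by -0.28 (adjusted p = 0.13) and Igfbp3 95082_at by 0.38 (adjusted p = 0.22). The mutants were also compared directly: 0 of 10 member probe sets passed between mdx5cv and mdx, against 0.523% of all. Igfbp3 95082_at had a limma difference of 0.55 there, with an interval of 0.13 to 0.97 (adjusted p = 0.36). Both averaged strain comparisons share the C57BL10 samples.

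The 2 Igf1 probe sets gave opposite signs. In mdx, 95545_at was lower, with a log2 difference of -0.35 ± 0.12 (limma adjusted p = 0.046), while 95546_g_at differed by 0.29 ± 0.18 (adjusted p = 0.27, interval -0.07 to 0.66). The lower call was weak: it was lost in 21 of the 32 runs that left out 1 array, with adjusted p up to 0.11, and without the diaphragm it was -0.33 (adjusted p = 0.11). Without the diaphragm and the TA the log2 difference of 95545_at in mdx was smaller, at -0.20. In the third scanning period alone it was -0.15. In 95545_at the limb signal was 2765 to 4800 in C57BL10 (median 3395), 2167 to 4277 in mdx (median 2796) and 2791 to 4727 in mdx5cv (median 3349), and the 3 ranges overlapped.

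**Figure D3:**
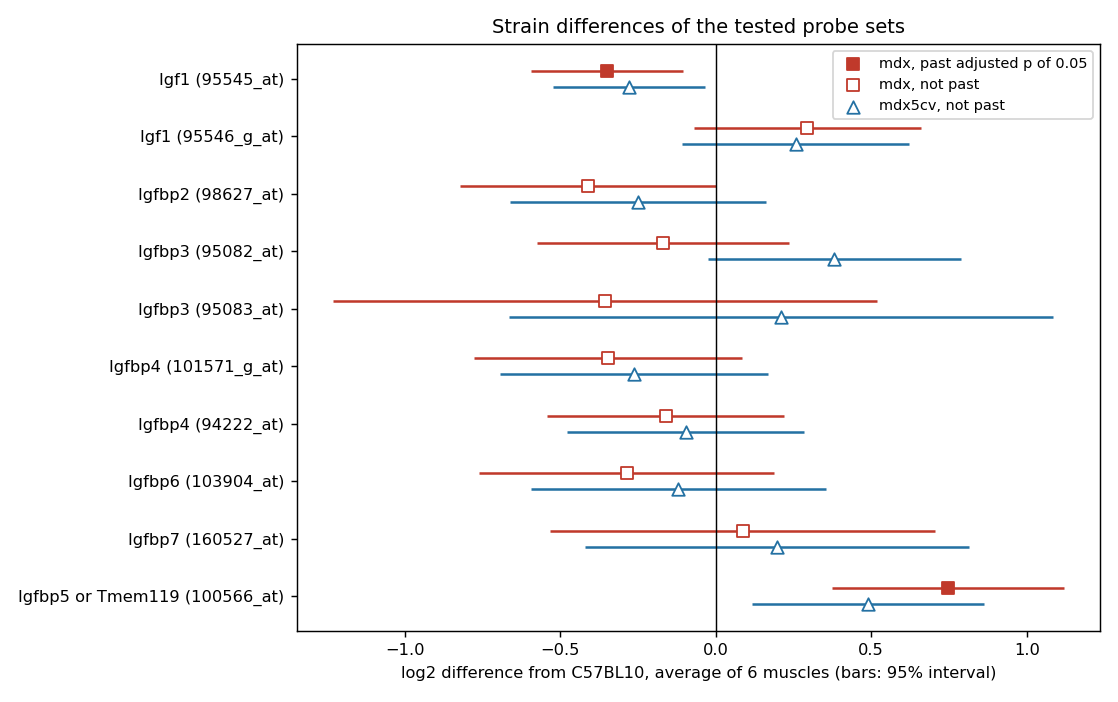
Log2 difference from C57BL10, averaged over 6 muscles with equal weight, of each tested member probe set in mdx (squares) and mdx5cv (triangles), with 95% intervals; filled symbols pass an adjusted p of 0.05. The Igfbp5 or Tmem119 probe set lies highest, at 0.75 in mdx and 0.49 in mdx5cv, and the 2 Igf1 probe sets lie on opposite sides of 0.

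Over the 5 limb muscles alone, with both mutants pooled, 1 of 10 member probe sets passed, against 16.2% of all. This comparison was added after the data were seen. The Igfbp5 or Tmem119 probe set was higher by 0.58 ± 0.17 (SE; limma adjusted p = 0.020), and lost its call in 3 of the 32 runs without 1 array: without C57BL10 gastroc sample 1 (adjusted p = 0.068), C57BL10 quadriceps sample 2 (0.074) or C57BL10 soleus sample 2 (0.059). Igf1 95546_g_at differed by 0.46 ± 0.17 (limma adjusted p = 0.059), and passed without the 2 arrays of low correlation (0.59, adjusted p = 0.013). Igf1 95545_at differed by -0.22 (adjusted p = 0.21).

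Muscle by muscle, few members passed. In soleus 1 of 10 did, against 1.57% of all probe sets: the Igfbp5 or Tmem119 probe set, with 9321 and 6268 in C57BL10 and 12891 to 38040 in the 4 mutant samples, all higher. The limma difference was 1.45 ± 0.37 (adjusted p = 0.043), and it did not pass in 18 of the 32 runs without 1 array, with the highest adjusted p, 0.61, without C57BL10 soleus sample 2. In diaphragm 1 of 10 passed, against 2.98%: Igfbp4 94222_at, with 3185 and 2359 in C57BL10 and 663 to 1682 in the mutants, a log2 difference of -1.39 ± 0.38 (limma adjusted p = 0.041). That call was lost in 11 runs without 1 array, with an adjusted p of 0.50 without C57BL10 diaphragm sample 1. The other Igfbp4 probe set differed there by -1.10 (adjusted p = 0.21), Igfbp2 by -1.09 (0.19) and Igf1 95545_at by -0.80 (0.077). Mean log2 liver levels were 12.92 and 13.16 in mdx5cv diaphragm, below the 14.36 and 14.39 of C57BL10. The mdx diaphragm samples, at 14.25 and 14.74, lay on both sides of C57BL10. With both mutants pooled, 0 of the 12 liver markers tested passed in diaphragm. The part of liver RNA in these differences was not tested.

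None of the 10 passed in EDL, gastroc, quadriceps or TA, where 2.59%, 2.25%, 5.41% and 4.32% of all probe sets did in limma.

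The samples of both mutants and of C57BL10 were also compared by whether they overlapped, as a description with no test. In diaphragm 5 of the 10 tested member probe sets did not overlap, against 32.8% of all probe sets tested, in EDL 2 against 23.8%, and in gastroc, with only 2 samples on each side, 4 against 44.5%. In quadriceps it was 2 against 25.2%, in soleus 1 against 20.9% and in TA 2 against 18.9%. Separation was frequent over the whole array, so the cases below are descriptions of the samples and not a result about the members. Igf1 95546_g_at lay higher in the mutants in EDL (518 and 630 in C57BL10, 791 to 1323 in the mutants), gastroc (507 and 1055, then 1232 and 1385) and quadriceps (624 and 735, then 860 to 1223). Igf1 95545_at lay lower in them in diaphragm, gastroc and TA. Igfbp6 lay lower in diaphragm, EDL and gastroc, and Igfbp3 95082_at lower in gastroc (496 and 617, then 363 and 482). Both tested Igfbp4 probe sets lay lower in diaphragm, and Igfbp7 lay higher in quadriceps (204 and 319, then 502 to 786). The Igfbp5 or Tmem119 probe set lay higher in diaphragm (11990 and 12633, then 17540 to 28003) as well as in soleus. Igfbp2 was lower in TA, 238 to 464 in the mutants after 474 and 1113 in C57BL10, where the mutant liver level was also lower, at 7.94 to 8.98 against 10.70 to 10.88. The third Igfbp4 probe set, which was not tested, lay lower in gastroc.

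**Figure D4:**
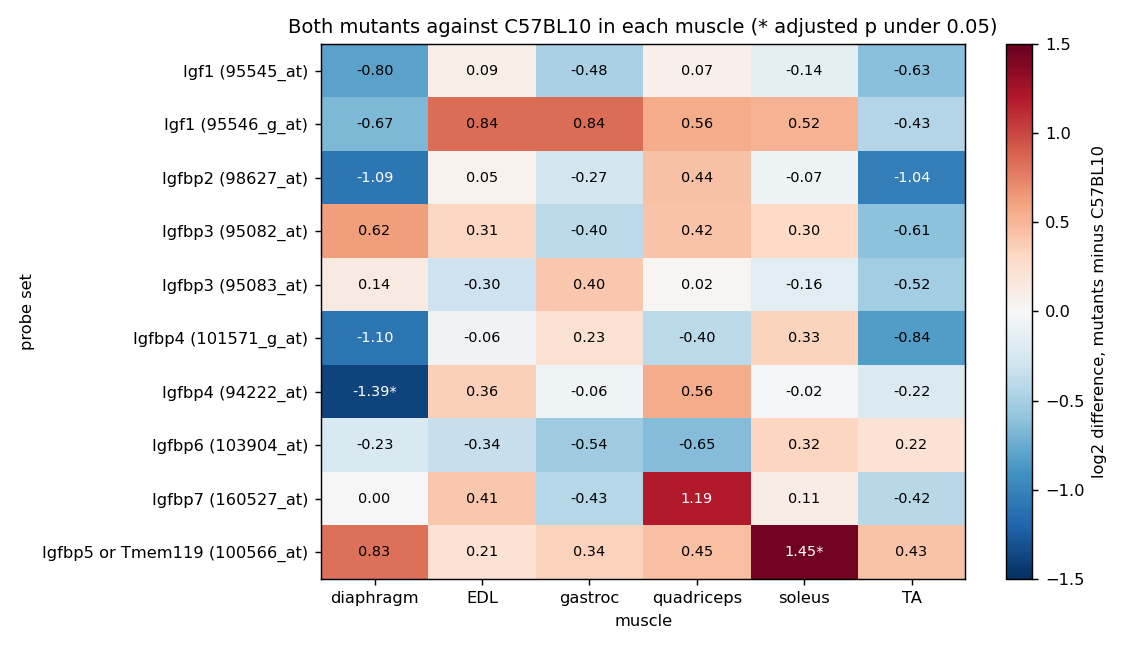
Log2 difference of both mutants from C57BL10 for each tested member probe set (rows) in each muscle (columns), with the value in each cell and an asterisk where the adjusted p is under 0.05. The asterisks stand at Igfbp4 94222_at in diaphragm (-1.39) and at the Igfbp5 or Tmem119 probe set in soleus (1.45).

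The change in the diaphragm was not shown to differ from that in the limb muscles for any member. In limma 0 of 10 passed for the mutant change in diaphragm minus the mean change in limb muscles, against 0.228% of all probe sets. For the joint F test of the change among the 6 muscles 0 of 10 passed, against 0.671%. Igfbp4 94222_at had the largest diaphragm difference among the tested members, -1.51 (adjusted p = 0.17).

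The ratio of the 2 Igf1 probe sets within an array, 95546_g_at over 95545_at, was examined after the values were seen, as was that of the Igfbp4 pair. A ratio shows unequal change of the 2 probe sets and does not say which one moved. It is given with no test, since it restates the differences of the probe sets above. On the log2 scale the Igf1 ratio was 0.12 ± 0.48 (SD, n = 6) in diaphragm and -1.94 ± 0.54 (SD, n = 28) in limb muscles. For Igfbp4, 101571_g_at over 94222_at, it was 2.19 ± 0.61 (SD, n = 6) and -0.32 ± 0.97 (SD, n = 28). In limb muscles the Igf1 ratio was -1.72 ± 0.49 (SD, n = 18) in the mutants and -2.34 ± 0.39 (SD, n = 10) in C57BL10. The Igfbp4 ratio there was -0.44 ± 1.11 and -0.11 ± 0.65, which overlap widely.

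**Figure D5:**
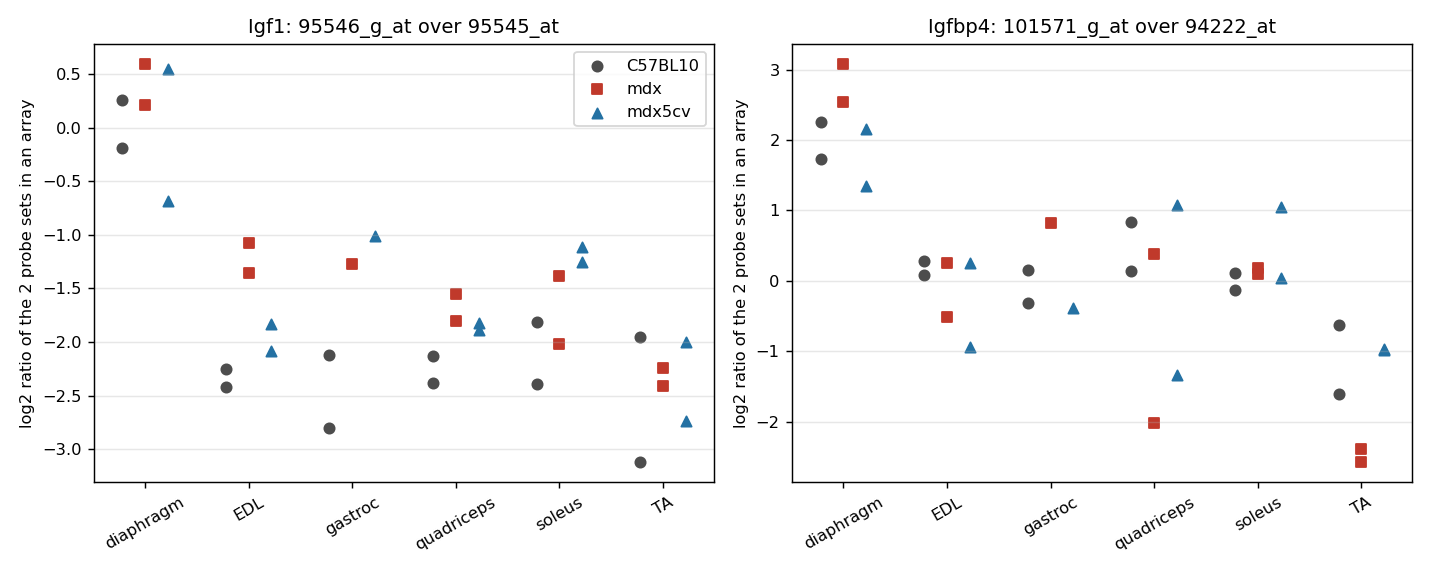
Log2 ratio of 2 probe sets of the same gene within each array, for Igf1 (left) and Igfbp4 (right), by muscle and strain, 1 point per array. The 6 diaphragm arrays are the highest in both panels, and the Igf1 ratio of the mutant limb arrays is mostly above that of C57BL10 except in TA.

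The genes whose 18 group means were most like those of each member are given as descriptions, over groups that share arrays and the diaphragm signal. For Igfbp2 they were Apoc1, Itih2 and Cps1, which encode an apolipoprotein, an inhibitor chain of plasma and an enzyme of the urea cycle (Pearson r 0.983, 0.976 and 0.975). For Igf1 95546_g_at they were Lgals9, Iigp1 and Tmem205 (highest r 0.957), and for Igf1 95545_at Shmt1, Car5a and Cmtm8 (highest r 0.864). For Igfbp4 101571_g_at they were Egfr, Errfi1 and Reln (highest r 0.921), for Igfbp4 94222_at Myo6, Eif3f and Nfatc2 (highest r 0.755), and for Igfbp6 Zfp36, Mylk and Pcsk7 (highest r 0.848). For Igfbp3 95082_at they were 2610524H06Rik, Tcap and Agpat5 (highest r 0.780), for Igfbp3 95083_at Mapk8ip1, Rgs5 and Sema7a (highest r 0.815), and for Igfbp7 Rad50, Nagk and Eno2 (highest r 0.728). For the Igfbp5 or Tmem119 probe set they were Cdkn1c, a cell cycle inhibitor, Thy1 and Jpt1 (highest r 0.832). Without the diaphragm, over 15 groups, the nearest gene to Igfbp2 was Hba-x (r 0.933) and none of Apoc1, Itih2 or Cps1 was among its top 3. Between members, Igfbp2 and Igf1 95546_g_at had r 0.90 over 18 groups and 0.03 over the 15 without the diaphragm. The other Igf1 probe set, 95545_at, had r 0.77 with Igfbp2 over 18 groups and 0.75 over the 15.

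Of 65 listed genes of the IGF pathway, 47 were on the array and 38 were tested. In mdx 7 were higher and 2 lower, beside the 15.9% of all probe sets called, with a median of 0.02 against -0.06 over all probe sets tested. In mdx5cv 5 were higher and 2 lower, beside 14.9%, with a median of 0.03 against 0.02. Nothing is read from these counts about the pathway as a whole. Igf2, the second IGF ligand, was higher by 2.63 ± 0.19 in mdx and 2.39 ± 0.19 in mdx5cv (limma adjusted p = 3.3e-10 and 1.6e-09). Mmp3, a matrix protease that can cut binding proteins, was higher by 1.63 and 1.86, and Socs3, a feedback inhibitor of cytokine signalling, by 1.11 and 1.34. Mstn, which encodes the growth inhibitor myostatin, was lower, by -0.69 ± 0.16 in mdx and -0.88 ± 0.16 in mdx5cv (limma adjusted p = 0.0032 and 2.3e-04). Tsc1, a brake on mTOR signalling, was lower, by -0.45 and -0.55. Among the receptor genes, Igf2r was higher in mdx by 0.58 ± 0.15 (limma adjusted p = 0.0077). The receptor gene Igf1r (mdx -0.06) and the growth hormone receptor gene Ghr (-0.22) did not pass in mdx. Neither did the liver-made carriers Igfals (-0.67) and Igfbp1 (-0.56). In mdx5cv, as in mdx, 2 of the 6 ligand, receptor and carrier genes tested were higher and 0 lower, Igf2 among them. The mdx5cv values of the receptors and carriers are not given here.

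Markers of other cells moved with the strain. On average over the 6 muscles, all of the 14 macrophage markers, 9 of 10 fibroblast and matrix markers and 8 of 10 regenerating muscle markers tested were higher in both mutants. The share of all probe sets called was 15.9% in mdx and 14.9% in mdx5cv. The 12 liver markers tested gave 0 calls in mdx and 2 lower in mdx5cv. With both mutants pooled, 7 of these 12 were lower in TA, beside 4.32% of all probe sets, and 0 were called in diaphragm, beside 2.98%. In the other limb muscles up to 11 of the 15 liver markers were at the floor. Of the 6 slow fibre markers, 1 was higher and 3 lower in mdx, and 3 were higher and 0 lower in mdx5cv. Between mdx5cv and mdx directly, 3 were higher in mdx5cv, beside 0.523% of all probe sets called. Of the 2 erythroid markers tested, 1 was lower in mdx and 2 in mdx5cv. Of the 3 smooth muscle markers, 1 was higher and 2 lower in mdx, and 1 higher and 1 lower in mdx5cv. Among 9 endothelial markers 1 was lower in each mutant, 1 of 4 adipocyte markers was lower in mdx, 1 of 3 tendon markers was higher in mdx5cv, and none of the 7 fast fibre markers was called in either. Nothing is read about these cells from such counts of 1. In limb muscles the mean log2 signal of the 10 fibroblast and matrix markers was 11.95 ± 0.42 (SD, n = 10) in C57BL10, 13.34 ± 0.38 (SD, n = 9) in mdx and 13.26 ± 0.20 (SD, n = 9) in mdx5cv, and that of the regenerating muscle markers was 9.80 ± 0.43, 11.18 ± 0.30 and 11.18 ± 0.19. Thy1 and Cdkn1c, near the Igfbp5 or Tmem119 probe set above, are on these lists. Their part in the higher signal of that probe set was not tested.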

How the data were processed

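The authors deposited linear signal intensities of 12488 probe sets that are scaled per array, since the 2% trimmed means of all arrays are nearly equal; which algorithm made them was not given in the sources used. Scanning periods come from scan days in the experiment files, which 30 arrays have. Members and lists were chosen with earlier results of these data known. Genes came from GEO's platform annotation (10855 probe sets with 1 symbol, 396 with several and 1237 with none). Signals below the 20th percentile (118) were raised to that floor before the log2 transform. Testing covered the 7453 probe sets whose mean reached the 40th percentile, the 66 controls being left out. limma 3.58.1 in R 4.3.3 fitted 18 group means to 34 arrays (16 residual degrees of freedom; eBayes with a trend), with two-sided p-values adjusted by Benjamini-Hochberg over all probe sets tested. A group of 1 array borrows the spread of the other groups. mdx EDL sample 1 is described as mdx5cv in 1 label and was grouped by its title. Named were all members, up to 3 highest and 3 lowest pathway genes past the threshold per averaged comparison, and the 3 genes most like each member. Beside these, Igf1r, Igf2r, Ghr, Igfals and Igfbp1 were named from the pathway list. The fit was tested on simulated data. Alternatives were normalization, floor, filter, prior variance, array weights, blocks for sample number and period, and leaving out arrays or muscles. Figures were drawn with matplotlib 3.10.9 in Python 3.11.15.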

Additional observations from a re-analysis of the deposited data

How the results depend on the processing

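Counts below are member probe sets past an adjusted p of 0.05 in limma, of 10 tested. The count for C57BL10 diaphragm (4) was 6 with array weights, 3 to 4 without single arrays (32 runs) and 4 in the other settings run. For mdx on average (2) it was 1 with array weights, without mdx EDL sample 1, without the filter, without a prior trend, with the period block, without the diaphragm, and without the diaphragm and TA, 0 in arrays of the third period alone, and 1 to 2 without single arrays; the Igf1 call was the one lost in each of the settings giving 1, and by the other Igf1 probe set it was 0.29. For mdx5cv on average (0) it was 1 without the 2 arrays of low correlation, with quantile normalization, with the period block and without the diaphragm and TA, and 0 to 1 without single arrays. For the mutants in diaphragm (1) it was 3 without the 2 arrays of low correlation, 5 with array weights, 0 without mdx EDL sample 1, without the filter or without a prior trend, and 0 to 1 without single arrays. In soleus (1) it was 0 without mdx EDL sample 1, without the filter or without a prior trend, and 0 to 1 without single arrays. In TA (0) it was 1 with quantile normalization and 0 to 1 without single arrays. In the pooled limb comparison (1) it was 2 without the 2 arrays of low correlation or with the period block, and 0 to 2 without single arrays. For the diaphragm against the limb change (0) it was 1 with array weights, and for the joint F test (0) 0 to 1 without single arrays. For C57BL10 EDL (0) it was 1 with array weights or the gastroc copies and 0 to 2 without single arrays; for quadriceps (0) 1 without the 2 arrays of low correlation, with array weights or the gastroc copies and 0 to 1 without single arrays; for soleus (0) 1 without the 2 arrays of low correlation or with quantile normalization. For C57BL10 TA (1) it was 0 without the 2 arrays of low correlation or with array weights, 2 with the gastroc copies, quantile normalization or the sample number as a replicate block, and 0 to 2 without single arrays. The share of all probe sets that passed in each setting is not given beside these counts. A change in a count is therefore not read as a result about the members. The causes of these changes were not tested. The samples were taken to share only a number, which the labels tie to no batch: over 120 pairs of groups the correlation of the deviations of equally numbered samples had a median of 0.05, from -0.36 to 0.62, and was over 0.1 in 47. The number goes partly with the scanning period (first samples mostly in earlier periods, the other way round in C57BL10 gastroc), and the replicate block moved the count by over 1.5 times only in C57BL10 TA, to 2. Signal near the floor limits the second Igfbp3 and the lowest Igfbp4 probe set.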
